A study of Mus musculus with 12 samples.

Results

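Spinal cords of mice that lack Plekhg5 and carry the human SOD1-G93A transgene were compared with spinal cords of healthy Plekhg5+/+ mice across all genes, 3 libraries against 3. These 6 libraries were taken, by the genotype in their labels, from the 12 of the series. Plekhg5-/- SOD1-G93A mice carry 2 changes relative to the controls, the loss of Plekhg5 and the transgene, so a difference between the groups cannot be assigned to either of them from this contrast alone. The remaining 6 libraries, 3 from Plekhg5+/+ SOD1-G93A mice and 3 from Plekhg5-/- mice, are given beside many of the results for that reason. All mice were 7 months old and on a C57BL/6 background. The transgene came from a low-copy line with slow disease, and the deficiency of Plekhg5 was not restricted to a cell type by the labels. Poly-A RNA of whole cord was sequenced, so fewer cells of a type and less RNA per cell cannot be told apart. The labels number the libraries within each genotype and name no litters, so p-values measure the spread between these libraries.

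SOD1-G93A is a mutant form of the human superoxide dismutase that causes familial amyotrophic lateral sclerosis (ALS), in which motoneurons of the spinal cord degenerate. In the cords of such mice microglia and astrocytes become reactive. Reactive microglia gain a set of transcripts often called disease-associated, for phagocytosis, lysosomal digestion and lipid handling, while reactive astrocytes gain Gfap, Vim and secreted proteins such as Serpina3n. Plekhg5 is a guanine nucleotide exchange factor for Rab26 that acts in the autophagy of synaptic vesicles in motoneurons. The comparison asks which changes of the diseased cord remain when Plekhg5 is absent.

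Both genetic changes were seen in the libraries. Plekhg5 lies on chromosome 4 (GRCm38.p6, chr4:152072433-152115404, plus strand) and was measured at 19.4, 24.5 and 25.0 CPM (counts per 1000000 counts of the library) in the Plekhg5+/+ libraries and at 4.72, 3.92 and 4.14 CPM in the Plekhg5-/- SOD1-G93A libraries. The groups did not overlap, and Plekhg5 fell by 2.43 on the log2 scale (SE 0.14, edgeR adjusted p = 7.69e-06), which is a 5.39-fold lower level. Human SOD1 is listed as a gene of its own and made up 0.492% to 0.508% of all counts in the Plekhg5-/- SOD1-G93A libraries. It was at 1.1, 1.64 and 0.153 CPM in the controls, which do not carry it, and at 5002, 4903 and 5098 CPM in the double mutants. The mouse Sod1 gene did not pass the test, with 183, 147 and 144 CPM against 156, 155 and 155 CPM (log2 difference -0.02, SE 0.11, edgeR adjusted p = 0.965).

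The total counts of these libraries ranged from 32235051 to 38743628. The libraries of a group differed by far more than counting noise, with chi-square values of 5.67 to 23.2 times their degrees of freedom for pairs of the same genotype, so no library was the same one sequenced again. Whether each came from a separate mouse is not shown by this. Y-linked transcripts were present in 3 of 3 Plekhg5+/+ libraries and in 1 of 3 Plekhg5-/- SOD1-G93A libraries, so sex was unbalanced between the groups. Skeletal muscle transcripts, which do not belong to cord, summed to 164 CPM over 6 genes in the third Plekhg5+/+ library and to 2.47 and 4.22 CPM in the others. They summed to 4.19, 35.2 and 3.70 CPM in the double mutants. Heat shock and immediate early genes stood high in the first and second Plekhg5+/+ libraries, as described below with those lists.

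Of 20155 genes tested, 10 passed an adjusted p of 0.05 (0.0496% of genes), 6 higher (0.0298%) and 4 lower (0.0198%) in Plekhg5-/- SOD1-G93A than in Plekhg5+/+ cord. Values below are CPM per library in the order of the library numbers, n = 3 in each group, and differences are on the log2 scale with their standard error (SE) from the fit. The fit, with edgeR's quasi-likelihood test, shares 1 estimate of the spread between all 4 genotypes. Genes that pass it are called below. With only the 2 genotypes compared in the fit, 113 of 19531 genes were called (0.579%), 98 higher (0.502%) and 15 lower (0.0768%). The 10 genes of the first fit were among these 113, and the rest were not called with 4 genotypes. Apart from fits that leave out a library or add a covariate, log2 differences and SE below come from the fit of 4 genotypes. This also holds where the adjusted p beside them is from 2 genotypes. That fit has its own SE, which for C3 was 0.085 against 0.16 with 4 genotypes. DESeq2 is given for 4 genotypes unless the fit of 2 genotypes is named. That DESeq2 fit was added after seeing the data and called 316 of 22241 genes, 244 higher and 72 lower. An unadjusted p under 0.05 in the first fit was reached by 9.48% of all genes, 5.31% higher and 4.16% lower. Counts of calls within lists depended on single libraries and on a covariate for Y-linked transcripts, and the lowest count is given beside each list where it fell by more than 1.5 times. Leaving the first Plekhg5+/+ SOD1-G93A library out of the fit of 4 genotypes gave 82 called genes, 74 of them higher, and 65 of these were among the 113. That library had the highest levels of microglial transcripts of the series, with 1964 CPM summed over 14 general microglial genes beside 959 and 1014 CPM in the other libraries of its genotype. It enters the first fit through the shared spread and not through either group mean. In the same fit of 4 genotypes, 498 genes (2.47%) were called between Plekhg5+/+ SOD1-G93A and Plekhg5+/+ cord, which uses the same control libraries.

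**Figure D1:**
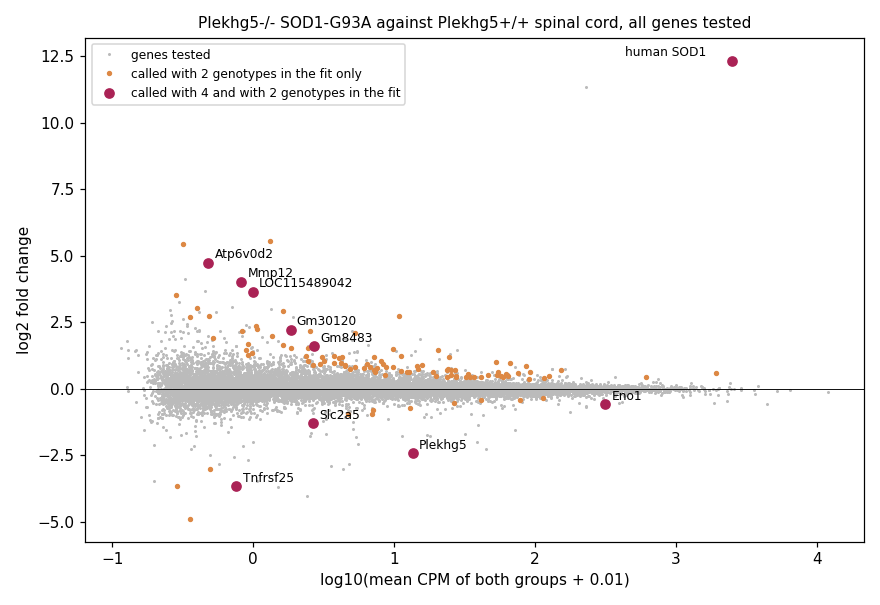
Each point is 1 of the genes tested. The x axis is the log10 of the mean CPM of both groups plus 0.01 and the y axis is the log2 fold change of Plekhg5-/- SOD1-G93A against Plekhg5+/+ cord. The 10 named genes were called with 4 and with 2 genotypes in the fit, and the orange points were called with 2 genotypes only and lie mostly above 0.

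Of the 6 genes called higher, 2 are known from reactive myeloid cells, Atp6v0d2 and Mmp12. Atp6v0d2 encodes a subunit of the vacuolar proton pump that acidifies lysosomes and is made by macrophages and osteoclasts (chr4:19876838-19922566, minus strand). It was at 0, 0.0315 and 0.0612 CPM in the controls and at 0.894, 1.18 and 0.647 CPM in the double mutants, without overlap. These levels rest on 3 counts in all controls and 93 counts in the double mutants, a ratio of 29.5 (95% interval 9.78 to 146 for counting error only). The edgeR log2 difference was 4.73 (SE 0.60, adjusted p = 0.00965).

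Mmp12 encodes the macrophage elastase, a secreted protease of the extracellular matrix (chr9:7344397-7360461, plus strand). Its level was 0.0870, 0.157 and 0.0306 CPM in the controls and 1.76, 1.58 and 1.27 CPM in the double mutants, and the groups did not overlap. The log2 difference was 4.02 (SE 0.51, edgeR adjusted p = 0.00965). Both genes were also higher in Plekhg5+/+ SOD1-G93A than in the same control libraries, Atp6v0d2 with a log2 difference of 4.26 (adjusted p = 0.0125) and Mmp12 with 4.99 (adjusted p = 0.00184). In Plekhg5-/- cord without the transgene, their log2 differences were 1.87 (adjusted p = 0.929) and 1.79 (adjusted p = 0.909). Neither was called between the transgenic genotypes in edgeR, with log2 differences of 0.48 (SE 0.37, adjusted p = 0.693) for Atp6v0d2 and -0.97 (SE 0.33, adjusted p = 0.502) for Mmp12. Atp6v0d2 lost its call without the first or the second Plekhg5+/+ library or without the second Plekhg5-/- SOD1-G93A library. Mmp12 lost it without the first Plekhg5+/+ library or the second Plekhg5-/- SOD1-G93A library, and the adjusted p then reached at most 0.0763 for Atp6v0d2 and 0.0762 for Mmp12.

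The other 8 called genes are Plekhg5, human SOD1 and 6 genes that stood at like levels in both genotypes without Plekhg5. Tnfrsf25 encodes the death receptor DR3 and starts 0.0431 Mb from the start of Plekhg5 (chr4:152115528-152120119, plus strand). It was at 1.30, 1.92 and 0.949 CPM in the controls, at 0.123, 0.121 and 0.0777 CPM in the double mutants and at 0.0293, 0.181 and 0 CPM in Plekhg5-/- cord. All 6 libraries without Plekhg5 lay below all 6 libraries with it, the lowest of which was at 0.435 CPM. The log2 difference between double mutant and control was -3.66 (SE 0.52, edgeR adjusted p = 0.0184).

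Slc2a5, which encodes the fructose transporter and is also a marker of microglia, lies 1.95 Mb upstream of Plekhg5. It was at 3.54, 3.34 and 4.44 CPM in the controls and at 1.54, 1.43 and 1.66 CPM in the double mutants. Its log2 difference was -1.29 (SE 0.17, edgeR adjusted p = 0.0138), against -1.44 in Plekhg5-/- cord (adjusted p = 0.00770) and 0.17 in Plekhg5+/+ SOD1-G93A cord (adjusted p = 0.633). It was the single microglial list gene called lower. Eno1, which encodes the glycolytic enzyme enolase 1, lies 1.84 Mb upstream and was at 408, 371 and 352 CPM in the controls and 253, 262 and 243 CPM in the double mutants (log2 difference -0.58, SE 0.08, edgeR adjusted p = 0.0161). Its counts were not whole in 12 of 12 libraries, which marks reads shared with other genes, so its level is uncertain.

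The noncoding gene Gm30120, 1.11 Mb upstream of Plekhg5, moved the other way. It was at 0.696, 0.567 and 0.674 CPM in the controls and at 3.15, 3.16 and 2.72 CPM in the double mutants, a log2 difference of 2.21 (SE 0.19, edgeR adjusted p = 0.000219). Plekhg5-/- cord had 3.07, 4.22 and 3.41 CPM, and Plekhg5+/+ SOD1-G93A cord had 0.528, 0.330 and 0.390 CPM. The 6 libraries without Plekhg5 did not overlap the 6 with it.

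The pseudogenes Gm8483 on chromosome 14 and LOC115489042 on chromosome 19 showed the same pattern away from chromosome 4. Gm8483 was at 1.42, 1.35 and 1.22 CPM in the controls and 3.92, 4.13 and 4.17 CPM in the double mutants (log2 difference 1.61, SE 0.14, edgeR adjusted p = 0.000219), and its counts were not whole in 12 of 12 libraries. LOC115489042 was at 0.058, 0.189 and 0.184 CPM in the controls and 1.73, 1.82 and 1.89 CPM in the double mutants (log2 difference 3.64, SE 0.33, edgeR adjusted p = 0.000337). In Plekhg5-/- cord the log2 differences were 1.69 (adjusted p = 0.000140) and 3.46 (adjusted p = 0.000858). Both are annotated as pseudogenes, so which locus their reads came from is uncertain.

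Within 10 Mb of the start of Plekhg5, 5 of 223 genes tested were called (2.24%), and 5 of the other 19932 (0.0251%). With 2 genotypes in the fit the counts were 13 of 223 (5.83%) and 100 of 19932 (0.502%). In both fits these counts include Plekhg5 inside the window and human SOD1 outside it, which differ between the groups by design. The 13 were 6 higher and 7 lower in the double mutant. Among them are Zfp990, Gm42346, Zfp534, Zfp982 and Zfp979, which lie between 6.66 and 4.40 Mb upstream. The Zfp genes encode zinc finger proteins. Zfp990 was at 0.0290, 0.0629 and 0.0612 CPM in the controls and 2.74, 2.28 and 2.67 CPM in the double mutants. It was not low in every other library, since the third Plekhg5-/- library was at 4.73 CPM beside 0.0585 and 0.0904, and the second Plekhg5+/+ SOD1-G93A library at 1.98 CPM beside 0.0621 and 0.0900. Gm42346 was high in the same libraries, with 0.648, 0.455 and 0.699 CPM in the double mutants, 1.70 CPM in the third Plekhg5-/- library and 0.495 CPM in the second Plekhg5+/+ SOD1-G93A library. Zfp982 ran the other way, at 16.4, 15.9 and 15.9 CPM in the controls, 8.39, 10.8 and 10.1 CPM in the double mutants and 0.947 CPM in the third Plekhg5-/- library. The level of these genes differed between libraries of 1 genotype, and none was called with 4 genotypes in the fit (adjusted p = 0.454 for Zfp990, 0.452 for Gm42346 and 0.766 for Zfp982). Zfp990, Gm42346 and Zfp982 had counts that are not whole in 10 to 12 of 12 libraries, from reads shared between genes.

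**Figure D2:**
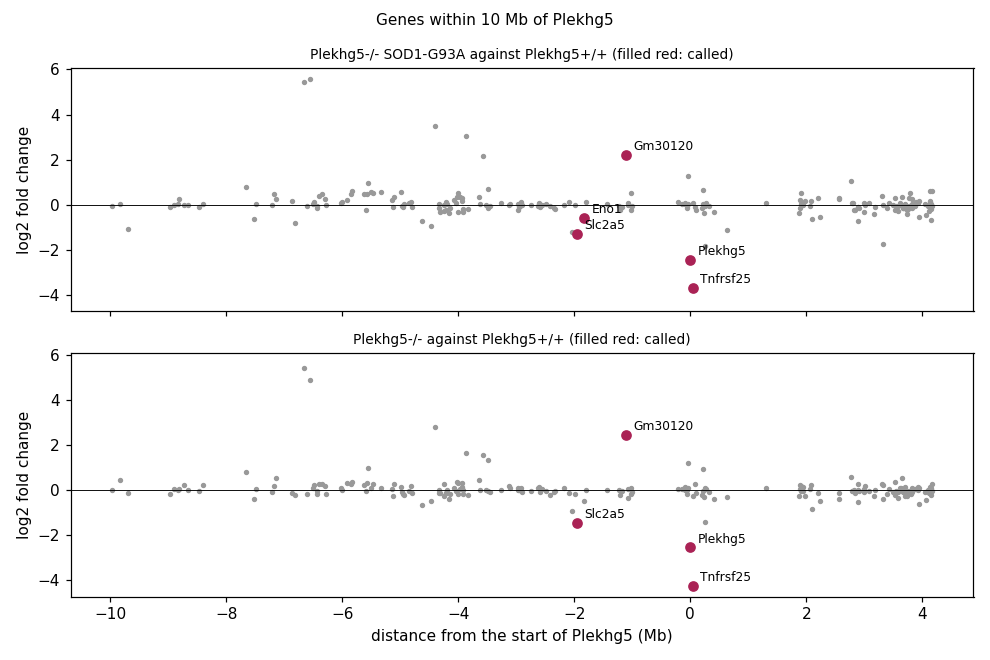
The x axis is the distance from the start of Plekhg5 in Mb, the y axis the log2 fold change against Plekhg5+/+ cord, and each point 1 gene tested within 10 Mb. Red points were called with 4 genotypes in the fit, Plekhg5, Tnfrsf25, Slc2a5, Gm30120 and Eno1 in the double mutant and the first 4 of these in Plekhg5-/- cord.

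Disease-associated microglial genes had the most calls of any list with 2 genotypes in the fit. In this list of 25 genes, 24 had log2 differences above 0, the libraries of the groups did not overlap for 20 genes (all higher, against 9.82% of all genes tested), and the median log2 difference was 0.65 against -0.00 over all genes. Atp6v0d2 and Mmp12 were called with 4 genotypes in edgeR and 12 of the 25 with 2 genotypes (0.579% of all genes). DESeq2 with 4 genotypes called 7 of the 25, and 4 with its prior (0.303% and 0.273% of all genes). The whole list was summed to 3195, 2907 and 2902 CPM in the controls and 3733, 3735 and 3546 CPM in the double mutants. In Plekhg5-/- cord it was summed to 3435, 3087 and 2975 CPM, with a median log2 difference of 0.27 against the same controls.

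Gpnmb encodes a membrane glycoprotein of lipid-laden phagocytes. It was at 3.25, 2.39 and 2.82 CPM in the controls and at 20.6, 21.9 and 13.8 CPM in the double mutants. The lowest double mutant library stood far above the highest control. The log2 difference was 2.73 (SE 0.46), and the gene missed the threshold with 4 genotypes in the fit (edgeR adjusted p = 0.146) and passed it with 2 (adjusted p = 0.000915).

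Clec7a encodes the fungal glucan receptor dectin-1. It was at 2.00, 1.54 and 2.45 CPM in the controls and 8.51, 10.1 and 7.10 CPM in the double mutants, a log2 difference of 2.10 (SE 0.62, adjusted p = 0.392 with 4 genotypes and 0.00177 with 2 genotypes in edgeR). Cst7 encodes cystatin F, an inhibitor of lysosomal cysteine proteases. It was at 0.522, 0.220 and 0.367 CPM in the controls and at 2.96, 3.46 and 2.23 CPM in the double mutants (log2 difference 2.93, SE 0.80, edgeR adjusted p = 0.00333 with 2 genotypes and 0.369 with 4). The groups did not overlap for either gene. Itgax (the integrin CD11c), Lgals3 (galectin-3), Cd68 (a lysosomal membrane protein of macrophages) and Trem2 (a lipid-sensing receptor) were also called with 2 genotypes, with log2 differences of 2.17, 1.49, 1.22 and 0.73. The same genes had 4.31, 2.59, 2.36 and 1.79 in Plekhg5+/+ SOD1-G93A cord against the same control libraries.

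**Figure D3:**
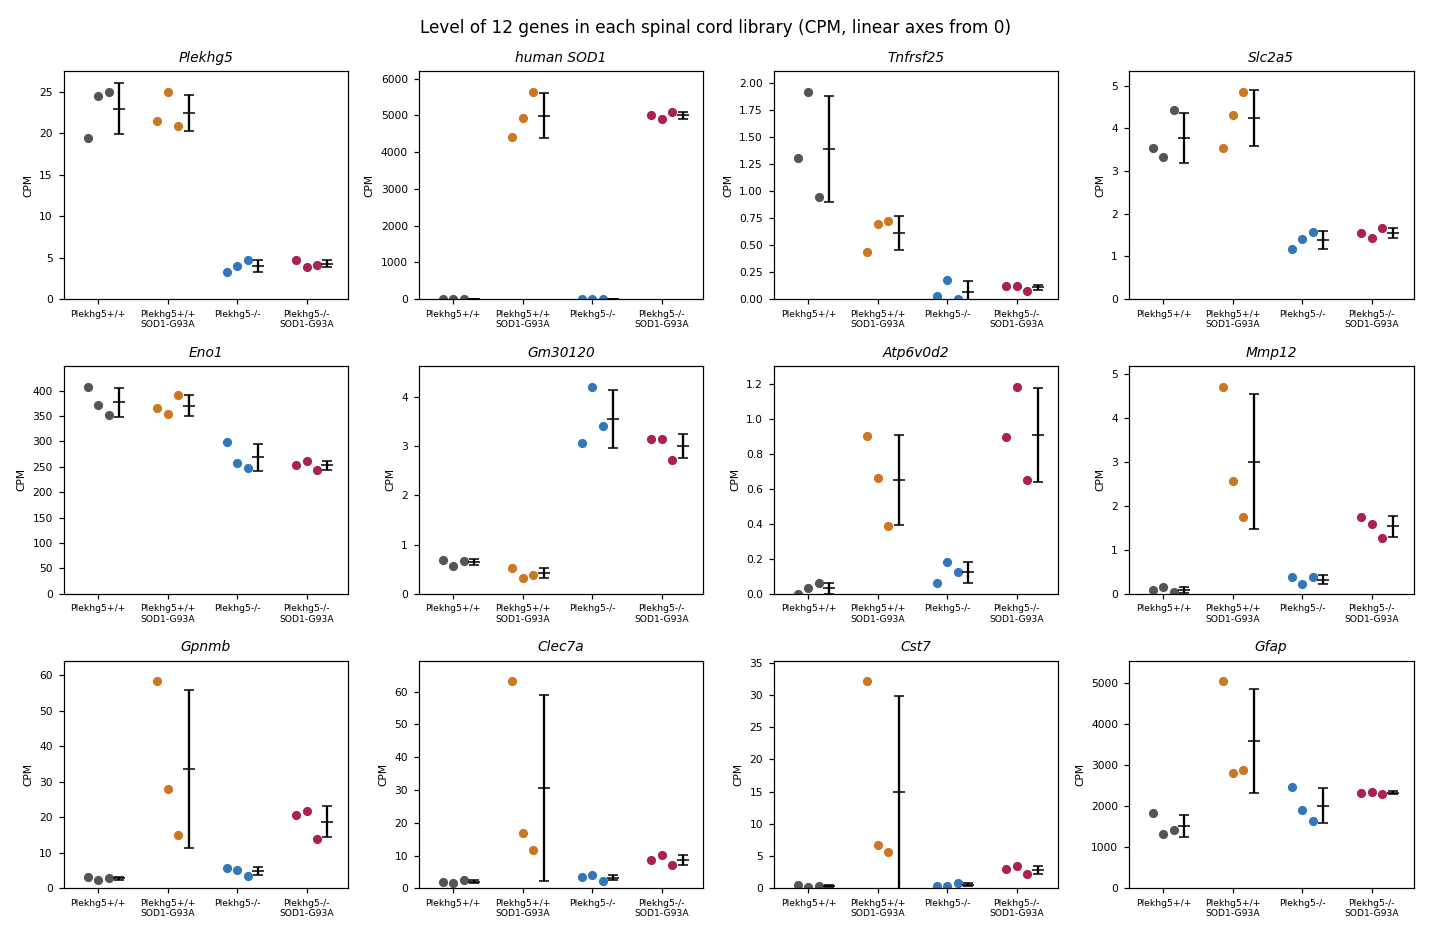
Each panel shows 1 gene, each point 1 library in CPM on a linear axis from 0, and the black bar beside it the mean and SD of 3 libraries, with bars below 0 not drawn. Tnfrsf25, Slc2a5, Eno1 and Gm30120 split by the presence of Plekhg5, Atp6v0d2 and Mmp12 by the presence of SOD1-G93A, and Gpnmb, Clec7a, Cst7 and Gfap lay in the double mutants above the controls and below the highest Plekhg5+/+ SOD1-G93A library.

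The promoters of the 4 disease-associated genes with the smallest adjusted p with 2 genotypes in the fit are shown because these genes lay apart between the groups together. The windows of 300 bases run from 250 before to 50 after a transcript start and come from RefSeq (GRCm38.p6). Capitals mark TGANTCA, the site of AP-1, and GAGGAAGT, a core of the site of PU.1, the transcription factor of myeloid cells, searched on both strands.
Gpnmb, chr6:49036268-49036567, plus strand: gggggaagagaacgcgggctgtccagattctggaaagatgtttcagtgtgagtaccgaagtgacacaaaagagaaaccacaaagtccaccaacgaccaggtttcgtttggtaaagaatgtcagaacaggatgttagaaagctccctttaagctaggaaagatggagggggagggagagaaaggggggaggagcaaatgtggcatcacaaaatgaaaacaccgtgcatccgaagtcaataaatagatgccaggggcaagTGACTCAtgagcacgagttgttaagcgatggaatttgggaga
Mmp12, first start, chr9:7344147-7344446, plus strand: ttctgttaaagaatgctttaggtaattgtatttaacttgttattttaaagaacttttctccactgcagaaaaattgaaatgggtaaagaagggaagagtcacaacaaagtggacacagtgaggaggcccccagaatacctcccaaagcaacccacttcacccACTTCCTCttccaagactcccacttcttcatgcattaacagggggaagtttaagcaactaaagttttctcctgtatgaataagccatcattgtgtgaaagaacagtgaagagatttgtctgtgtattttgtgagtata
Mmp12, second start, chr9:7347124-7347423, plus strand: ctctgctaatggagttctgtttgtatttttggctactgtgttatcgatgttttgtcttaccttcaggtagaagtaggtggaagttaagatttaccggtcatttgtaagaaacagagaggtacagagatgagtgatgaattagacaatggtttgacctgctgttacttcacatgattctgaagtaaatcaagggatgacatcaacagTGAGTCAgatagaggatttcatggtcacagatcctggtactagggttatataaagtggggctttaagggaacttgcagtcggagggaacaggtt
Cst7, chr2:150570165-150570464, plus strand: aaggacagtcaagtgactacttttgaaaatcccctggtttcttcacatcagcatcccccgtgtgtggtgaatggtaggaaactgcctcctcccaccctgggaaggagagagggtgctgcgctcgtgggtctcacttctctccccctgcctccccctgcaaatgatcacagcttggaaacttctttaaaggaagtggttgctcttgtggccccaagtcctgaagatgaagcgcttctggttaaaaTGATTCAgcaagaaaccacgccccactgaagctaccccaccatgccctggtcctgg
Clec7a, chr6:129472730-129473029, minus strand: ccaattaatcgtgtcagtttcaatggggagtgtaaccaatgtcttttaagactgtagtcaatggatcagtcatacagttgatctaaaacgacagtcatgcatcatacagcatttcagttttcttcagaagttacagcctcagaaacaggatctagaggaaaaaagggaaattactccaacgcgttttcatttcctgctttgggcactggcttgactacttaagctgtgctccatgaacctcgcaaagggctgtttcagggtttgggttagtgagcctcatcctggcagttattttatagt
TGANTCA was found in the windows of Gpnmb, Cst7 and the second start of Mmp12 and in 7.81% of all 32851 promoter windows. GAGGAAGT was found at the first start of Mmp12 and in 3.20% of all windows. The window of Clec7a held neither set of letters. Of the 98 genes called higher with 2 genotypes in the fit, 70 had a window, and 13 of these had TGANTCA (18.6%, against 6.6% of the 13924 tested genes with a window and 8.97% of all 27025 genes with one) and 7 had GAGGAAGT (10%, against 3.59% and 3.69%). A match is a run of letters and no evidence of binding.

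General microglial markers had smaller differences. All 14 were higher in every double mutant library than in every control, which held for 9.82% of all genes tested. Their log2 differences ran from 0.39 to 0.89 with a median of 0.55. None of the 14 was called with 4 genotypes in edgeR, and 8 had an unadjusted p under 0.05, a level that 9.48% of all genes tested reached, 5.31% on the higher side. None was called by DESeq2, which called 0.303% of genes. DESeq2 with 2 genotypes called 10 of the 14, beside 316 of all 22241 genes. With 2 genotypes edgeR called 6 (0.579% of all genes). These became 0 without the second Plekhg5-/- SOD1-G93A library, 1 without the first, 2 without the second Plekhg5+/+ library and 1 with the Y-linked covariate. Csf1r, the receptor that microglia need to survive, was at 95.6, 98.7 and 102 CPM in the controls and 136, 134 and 122 CPM in the double mutants. C1qa, the first chain of complement C1q, was at 64.9, 49.8 and 63.9 against 93.7, 94.2 and 83.6 CPM, and Tyrobp, the signalling adaptor of Trem2, at 20.6, 14.7 and 18.6 against 34.2, 29.3 and 26.7 CPM. The list summed to 543, 469 and 544 CPM in the controls and 778, 742 and 683 CPM in the double mutants, without overlap. Across the 14 genes the median log2 difference was 1.38 in Plekhg5+/+ SOD1-G93A cord and 0.22 in Plekhg5-/- cord.

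Markers of resting microglia had a smaller median. In this list 10 of 14 were above 0 and 4 below, with a median of 0.24. Without overlap 8 were higher (9.82% of all genes tested) and 1, Slc2a5, lower (7.36%). The list summed to 478, 443 and 476 CPM in the controls and 577, 573 and 563 CPM in the double mutants, without overlap. With 2 genotypes 3 were called, and 0 without the first or the second Plekhg5-/- SOD1-G93A library. Cx3cr1, the fractalkine receptor, was called with 2 genotypes (edgeR adjusted p = 0.0224) and not with 4 (log2 difference 0.53, SE 0.19). P2ry12, the purinergic receptor of resting microglia, was at 32.2, 29.4 and 30.3 CPM in the controls and 35.6, 34.0 and 38.1 CPM in the double mutants (log2 difference 0.23, SE 0.12, adjusted p = 0.579). Tmem119 gave overlapping values of 27.4, 21.5 and 19 against 19, 23.6 and 23.7 CPM, a log2 difference of -0.03.

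The macrophage genes Lyz2 and Mpeg1 are in no list and were chosen after their values were seen. Lyz2, the lysozyme of macrophages, was at 36.2, 37.5 and 30.5 CPM in the controls and 84.0, 68.1 and 58.5 CPM in the double mutants. Mpeg1, a pore-forming protein of phagocytes, was at 47.0, 41.6 and 43.9 against 97.1, 85.4 and 79.6 CPM. Both were called with 2 genotypes in the edgeR fit, with adjusted p = 0.0178 for Lyz2 and 0.00157 for Mpeg1. For either gene the lowest double mutant library stood well above the highest control.

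Of 19 complement genes 18 had log2 differences above 0, with a median of 0.62, and 12 did not overlap, all higher (9.82% of all genes tested). With 2 genotypes 6 were called (0.579% of all genes), and 2 by DESeq2 (0.303%). The 6 became 2 without the first or the second Plekhg5-/- SOD1-G93A library or with the Y-linked covariate, and 3 without the second Plekhg5+/+ library, while DESeq2 with 2 genotypes called 11. C3, the central component, was at 82.7, 69.0 and 66.7 CPM in the controls and 116, 106 and 114 CPM in the double mutants. Its log2 difference was 0.62 with 4 genotypes (SE 0.16, edgeR adjusted p = 0.369), and it was called with 2 (adjusted p = 0.0178). C4b, of the classical pathway, had a log2 difference of 0.70 (edgeR adjusted p = 0.0294 with 2 genotypes). Cfp, which encodes properdin, was the exception, with 6.47, 9.82 and 5.67 CPM in the controls and 4.56, 5.77 and 4.22 CPM in the double mutants.

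Chemokine genes had log2 differences above 0 for 17 of 18 tested, of 21 listed. With 2 genotypes 2 were called, and 0 without the second Plekhg5+/+ or the second Plekhg5-/- SOD1-G93A library. DESeq2 called 1 of them (0.303% of all genes) and none with its prior. Ccl3, which attracts monocytes, was at 0.522, 0.283 and 0.184 CPM in the controls and 1.79, 1.76 and 1.63 CPM in the double mutants (log2 difference 2.36, SE 0.46, edgeR adjusted p = 0.0118 with 2 genotypes and 0.209 with 4). Cxcl10, an interferon-induced attractant of T cells, was called with 2 genotypes (edgeR adjusted p = 0.0311) and not with 4 (log2 difference 2.00, SE 0.71). Groups for both genes were apart in all libraries. Among 6 T and NK lymphocyte markers tested of 13 listed, all had log2 differences above 0. None was called with 4 genotypes (3 with an unadjusted p under 0.05 in edgeR, none called by DESeq2). With 2 genotypes none of those tested was called, and Cd4 was not tested. A gene could pass the filter on expression through transgenic libraries alone, and Cd4 was at most 0.18 CPM in the libraries without the transgene. The counts of genes above 0 in the lymphocyte and chemokine lists are therefore no test of a rise. The lymphocyte markers were summed to 1.83, 1.48 and 1.44 CPM in the controls and 3.89, 6.92 and 1.81 CPM in the double mutants. Lck, the kinase of the T cell receptor, was at 0.986, 0.661 and 0.796 against 1.91, 2.61 and 1.19 CPM, whereas Cd4 overlapped.

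Interferon-stimulated genes were above 0 for 21 of 21, with a median of 0.57, and 17 did not overlap, all higher (9.82% of all genes tested). Oasl2 was the member called with 2 genotypes, at 6.03, 6.61 and 6.31 CPM in the controls and 11.2, 13.1 and 9.58 CPM in the double mutants. The list had 0 calls without the first or the second library of either group or with the Y-linked covariate, and 5 in DESeq2 with 2 genotypes. Of 16 genes for MHC class I presentation, 11 were higher without overlap (9.82% of all genes) and 1 lower (7.36%), and B2m, H2-Q4 and H2-Q6 were called with 2 genotypes. These calls became 0 without the second Plekhg5+/+ library, without the first or the second Plekhg5-/- SOD1-G93A library or with the Y-linked covariate. B2m, the light chain of class I molecules, was at 110, 104 and 101 against 142, 155 and 139 CPM. The H2-Q genes share reads with their near copies and are uncertain. Toll-like receptor genes had no call with 4 or 2 genotypes in edgeR and none by DESeq2. At an unadjusted p under 0.05 there were 7 of 15, all higher (5.31% of all genes were higher at that level). They had 3 calls in DESeq2 with 2 genotypes, 3 in edgeR with 2 genotypes without the third Plekhg5+/+ library and 1 with 4 genotypes without the first Plekhg5+/+ SOD1-G93A library. With 2 genotypes 1 gene each was called among Fc receptors (Fcgr2b, log2 difference 0.94) and among genes of the phagocyte NADPH oxidase list (Hvcn1, a proton channel, 0.76), and both lists had 0 calls without the second Plekhg5-/- SOD1-G93A library. The second list also had 0 without the first, and without the first or the second Plekhg5+/+ library. Class II presentation had a median of 0.40 and no call in edgeR or DESeq2, with 1 of 8 genes at an unadjusted p under 0.05.

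Lysosomal genes were above 0 for 30 of 32, with the small median of 0.20, and 23 did not overlap between groups, all higher (9.82% of all genes tested). Cd68, Ctsd, Ctsz and Grn were called with 2 genotypes. The 4 calls became 1 without the second Plekhg5+/+ library, without the first or the second Plekhg5-/- SOD1-G93A library or with the Y-linked covariate. DESeq2 called 1 gene of the list, with and without its prior. The list summed to 6332, 6063 and 6072 CPM in the controls and 7136, 6989 and 6786 CPM in the double mutants. Plekhg5-/- cord had 6869, 6280 and 6173 CPM, so its first library lay within the range of the double mutants. Ctsd, the protease cathepsin D, was at 545, 496 and 509 CPM in the controls and 779, 717 and 639 CPM in the double mutants. Genes for autophagy and secretory autophagy, the process in which Plekhg5 acts, were 10 above and 13 below 0 with a median of -0.01. None was called in edgeR or DESeq2. At an unadjusted p under 0.05, 1 was higher (5.31% of all genes tested) and 3 lower (4.16%). Without overlap 5 of the 23 were lower (7.36% of all genes tested) and 1 higher (9.82%). Rab26, the GTPase that Plekhg5 activates, was at 6.67, 6.04 and 6.49 against 5.80, 5.37 and 4.58 CPM (log2 difference -0.29, SE 0.11, edgeR adjusted p = 0.474).

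**Figure D4:**
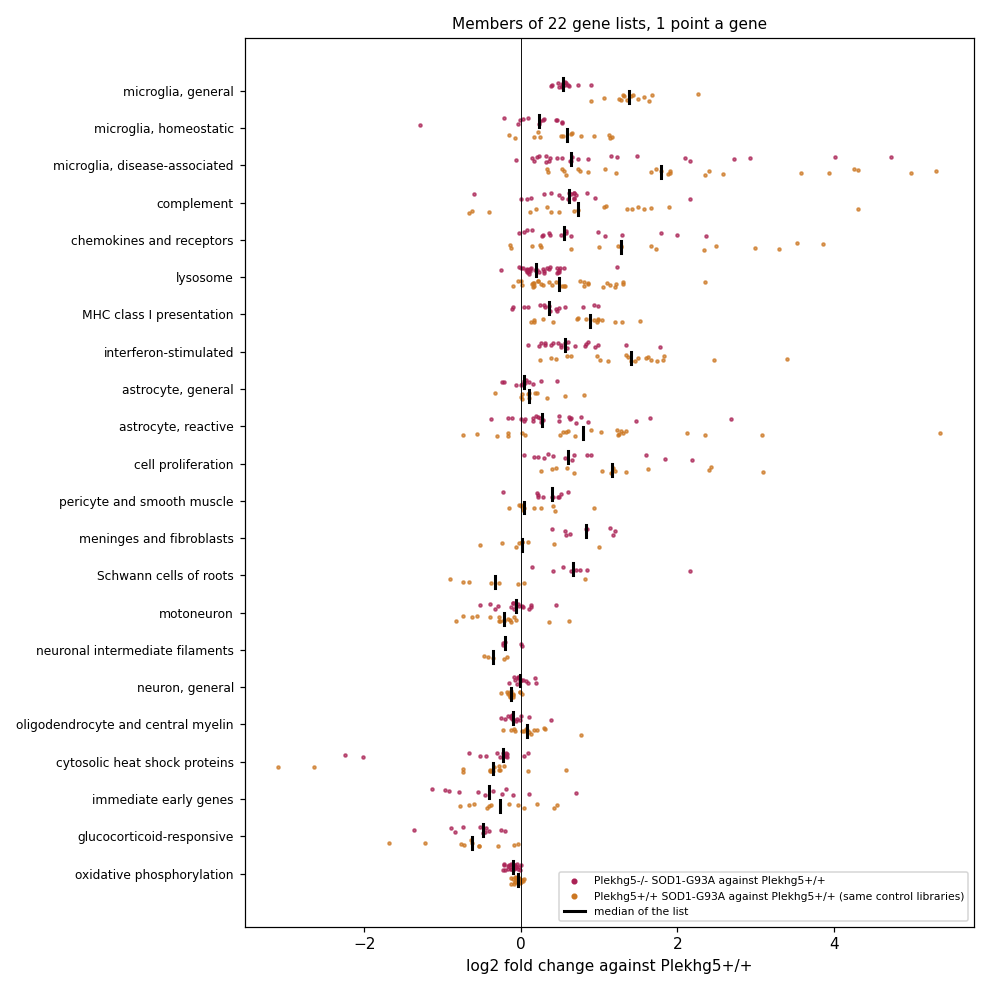
The x axis is the log2 fold change against Plekhg5+/+ cord, each point 1 gene, red for Plekhg5-/- SOD1-G93A and orange for Plekhg5+/+ SOD1-G93A, both against the same 3 control libraries. Black bars are list medians. Disease-associated microglial genes had a median of 0.65 in red and 1.79 in orange, and fibroblast genes 0.84 and 0.01.

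Reactive astrocyte genes had log2 differences above 0 for 21 of 24 tested, with a median of 0.27 and 12 genes without overlap, all higher (9.82% of all genes). Gfap, the intermediate filament of astrocytes, was at 1828, 1333 and 1421 CPM in the controls and 2336, 2363 and 2300 CPM in the double mutants (log2 difference 0.61, SE 0.22). The double mutant libraries differed from each other by less than the controls did. Gfap was not called with 4 genotypes (edgeR adjusted p = 0.448) and was called with 2 (adjusted p = 0.0459).

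Serpina3n, a secreted protease inhibitor, was at 64.8, 56.1 and 61.6 against 117, 120 and 94.9 CPM. Its log2 difference was 0.86 with 4 genotypes (SE 0.42), where it was not called, and the edgeR adjusted p was 0.00525 with 2. Timp1, an inhibitor of matrix proteases, was at 0.638, 1.01 and 0.704 against 2.04, 3.19 and 2.15 CPM. Cd44, S1pr3, Emp1, Ptx3 and Tgm1 were the other members called with 2 genotypes. The 8 calls became 1 without the second Plekhg5+/+ or the second Plekhg5-/- SOD1-G93A library, 2 without the first Plekhg5-/- SOD1-G93A library or with the Y-linked covariate, and 3 without the first Plekhg5+/+ or the third Plekhg5-/- SOD1-G93A library. The members were summed to 2282, 1729 and 1758 CPM in the controls and 2913, 2934 and 2810 CPM in the double mutants. In Plekhg5-/- cord they were summed to 2859, 2315 and 1999 CPM, the first within the range of the double mutants, with a median log2 difference of -0.03. General astrocyte genes had a median of 0.05, with 8 of 12 above 0 and no call with 4 or 2 genotypes in edgeR (1 at an unadjusted p under 0.05, none by DESeq2). DESeq2 with 2 genotypes called 2 of them, and edgeR with 2 genotypes called 1 without the first or the third Plekhg5+/+ library. Sox9, a transcription factor of astrocytes, was at 23, 23.4 and 28.7 against 36.3, 30.4 and 36.7 CPM.

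Proliferation genes were above 0 for 14 of 14, with a median of 0.61 and no call with 4 or 2 genotypes in edgeR (4 at an unadjusted p under 0.05, none by DESeq2, 1 by DESeq2 with 2 genotypes). Mki67, which marks dividing cells, was at 2.09, 1.76 and 2.63 CPM in the controls and 14.4, 5.40 and 3.70 CPM in the double mutants. The spread among the double mutants was wide, and the first of them stood far above the others.

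Connective tissue genes had a higher list median in the double mutant than in Plekhg5+/+ SOD1-G93A cord. Of 9 genes of meninges and fibroblasts all were above 0 with a median of 0.84, beside 0.01 in Plekhg5+/+ SOD1-G93A and -0.08 in Plekhg5-/- cord against the same controls. With 2 genotypes 2 genes were called, and 0 without the first Plekhg5+/+ library. Col1a1, the main chain of type I collagen, was at 14.8, 17.6 and 12.1 CPM in the controls and 33.4, 37.1 and 32.2 CPM in the double mutants (log2 difference 1.21, SE 0.19, edgeR adjusted p = 0.0717 with 4 genotypes and 0.00413 with 2). No double mutant library came near the controls, and DESeq2 called Col1a1 (adjusted p = 1.92e-06, and 1.04e-06 with its prior). Col28a1, made by glia of peripheral nerve and in no list, was at 1.01, 1.51 and 1.22 against 3.61, 3.86 and 3.50 CPM (log2 difference 1.55, adjusted p = 0.00659 with 2 genotypes), and Lum, a proteoglycan of fibroblasts, at 4.76, 4.72 and 3.67 against 6.91, 12 and 11 CPM. The fibroblast markers were summed to 233, 315 and 187 CPM in the controls and 284, 503 and 433 CPM in the double mutants, which overlap. The difference between the double mutant and Plekhg5+/+ SOD1-G93A was not called for Col1a1 (log2 difference 0.78, edgeR adjusted p = 0.402) or Col28a1 (0.96, adjusted p = 0.565).

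Markers of nerve roots and sensory ganglia are given beside these values. Sensory ganglion genes (4 tested of 7 listed) summed to 14.4, 16.6 and 18.1 CPM in the controls and 15.5, 28.2 and 15.3 CPM in the double mutants. Avil, one of them, was at 0.339, 5.01 and 0.440 CPM in the double mutants. The second double mutant library also had the highest sum of fibroblast markers. Schwann cell genes had log2 differences above 0 for 8 of 8, with a median of 0.67. None was called with 4 or 2 genotypes in edgeR or by DESeq2 in either fit. At an unadjusted p under 0.05, 4 were higher (5.31% of all genes tested). Without the third Plekhg5+/+ library, edgeR with 2 genotypes called Pmp2 (log2 difference 1.71, SE 0.23, adjusted p = 0.0206). Pmp2, a protein of peripheral myelin, was at 2.35, 2.58 and 0.490 CPM in the controls and 9.71, 5.83 and 8.86 CPM in the double mutants, without overlap (log2 difference 2.17, SE 0.66, edgeR adjusted p = 0.408). The list summed to 510, 558 and 256 CPM in the controls and 599, 541 and 745 CPM in the double mutants. The third control, which is also the one with muscle transcripts, was the lowest of these libraries. The part of root, ganglion and meningeal tissue in the connective tissue values was not tested. Endothelial genes were above 0 for 16 of 19, with a median of 0.15 and no call with 4 or 2 genotypes in edgeR (6 at an unadjusted p under 0.05, none by DESeq2, 3 by DESeq2 with 2 genotypes). With 2 genotypes edgeR called 1 without the first or the third Plekhg5+/+ library or with the Y-linked covariate. Abcb1a, the drug efflux pump of brain vessels, was at 31.3, 40.3 and 41.6 against 54.4, 55.8 and 50.6 CPM. Pericyte genes had a median of 0.40, and 6 of 11 were higher without overlap (9.82% of all genes tested). Pdgfrb was at 12.6, 16.4 and 18.4 against 23.9, 24.7 and 23.7 CPM (log2 difference 0.61, SE 0.14, edgeR adjusted p = 0.295). It was called by DESeq2 (adjusted p = 0.0254, and 0.0252 with its prior). The list had no call with 4 or 2 genotypes in edgeR, and 2 in DESeq2 with 2 genotypes. With 2 genotypes edgeR called Pdgfrb and Notch3 without the third Plekhg5+/+ library, and 1 gene without the first Plekhg5-/- SOD1-G93A library.

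**Figure D5:**
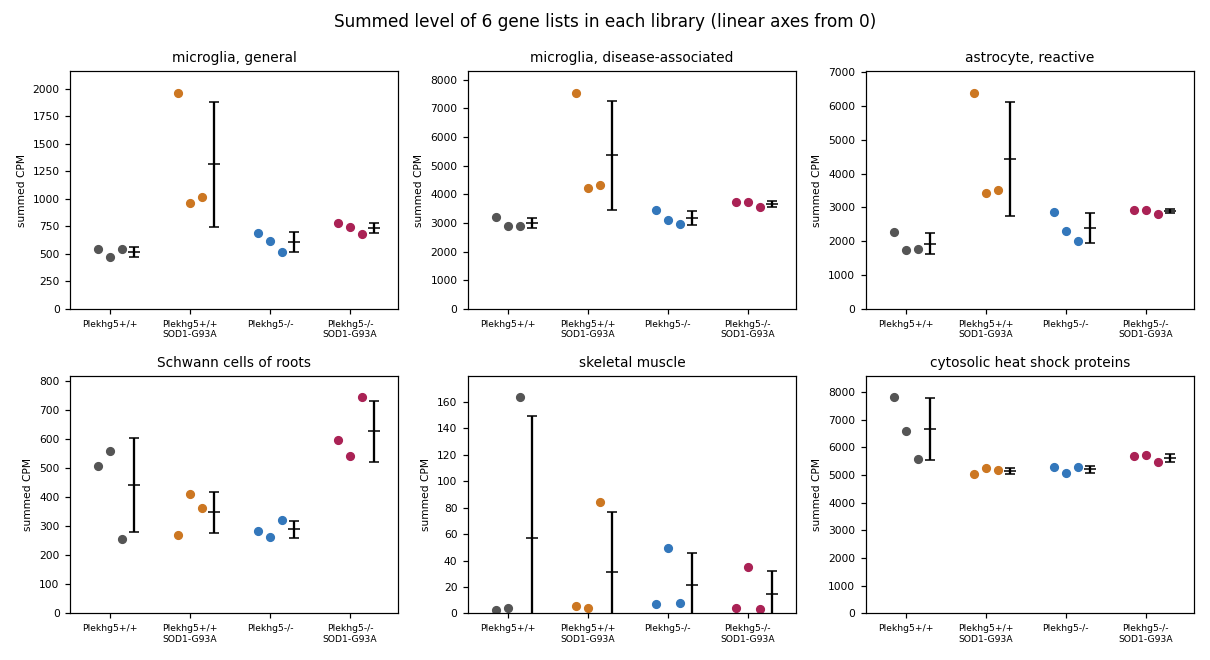
Each panel sums the CPM of 1 gene list, each point is 1 library on a linear axis from 0, and the black bar is the mean and SD of 3 libraries, with bars below 0 not drawn. Microglial, disease-associated and reactive astrocyte sums were higher in every double mutant than in every control library. Schwann, muscle and heat shock sums varied among the controls.

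General neuronal genes differed little. The 14 general neuronal genes had a median of -0.02 within -0.15 to 0.19. Of 17 motoneuron genes 11 were below and 6 above 0, with a median of -0.06 and no call with 4 or 2 genotypes in edgeR (1 higher and 2 lower at an unadjusted p under 0.05, none by DESeq2, 1 by DESeq2 with 2 genotypes). Chat, which encodes choline acetyltransferase, was at 29.5, 32.6 and 30.7 CPM in the controls and 31.5, 25.3 and 29.7 CPM in the double mutants. Chodl, a marker of fast motoneurons, was at 42.4, 41.5 and 39.5 against 34.3, 20.7 and 30.9 CPM, lower in every double mutant (log2 difference -0.52, SE 0.18, edgeR adjusted p = 0.441). Calca, the peptide CGRP of motoneurons, lay on the other side, at 34.8, 29.5 and 33.8 against 54.8, 36.8 and 42.3 CPM.

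The neurofilament genes Nefl, Nefm and Nefh, which build the cytoskeleton of large axons, were each lower in all double mutant libraries than in all controls. Nefl was at 2482, 2590 and 2473 CPM in the controls and 2357, 1928 and 2265 CPM in the double mutants (log2 difference -0.20, SE 0.09, edgeR adjusted p = 0.505). Non-overlap on the lower side was seen for 7.36% of all genes tested. Atf3, a transcription factor of injured neurons, was at 3.54, 2.64 and 1.99 against 6.91, 5.22 and 5.02 CPM (log2 difference 1.06, SE 0.38, edgeR adjusted p = 0.447). Neither the list of neuronal intermediate filaments (1 of 5 lower at an unadjusted p under 0.05) nor that of axon injury (3 of 18 higher) had a call with 4 or 2 genotypes in edgeR or with 4 in DESeq2. DESeq2 with 2 genotypes called 2 genes of the axon injury list and none of the filaments. Genes of central myelin had a median of -0.10, those of oxidative phosphorylation -0.10, synaptic vesicle genes 0.03 and ALS-linked genes -0.02, without a call in edgeR or DESeq2. At an unadjusted p under 0.05 these lists had 3 of 15, 0 of 22, 3 of 25 and 2 of 23 genes (9.48% of all genes tested). Below 0 were 13 of 15 myelin, 21 of 22 oxidative phosphorylation, 9 of 25 synaptic vesicle and 16 of 23 ALS-linked genes. Lower without overlap were 3 myelin, 2 oxidative phosphorylation, 1 synaptic vesicle and 3 ALS-linked genes (7.36% of all genes tested). Higher without overlap were 4 synaptic vesicle genes (9.82%) and none of the other lists.

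Heat shock, immediate early and glucocorticoid-responsive lists had medians below 0, with the controls split. Of 15 heat shock genes 13 were below 0, 10 with an unadjusted p under 0.05 (4.16% of all genes tested were lower at that level), and none was called with 4 or 2 genotypes in edgeR, while DESeq2 called 1 and DESeq2 with a prior called 3. Without the third Plekhg5+/+ library edgeR called 2 with 4 genotypes and 4 with 2. Hspa1a, the inducible chaperone Hsp70, was at 99.8, 69.7 and 16.8 CPM in the controls and 18.5, 16.2 and 11.7 CPM in the double mutants. Hsph1, a partner of Hsp70, was at 574, 464 and 365 against 341, 330 and 305 CPM. The first and second controls were high and the third lay near the double mutants for Hspa1a. The summed level of the list was 7809, 6593 and 5566 CPM in the controls, 5705, 5712 and 5467 CPM in the double mutants and 5070 to 5292 CPM in Plekhg5-/- cord.

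Immediate early genes, which neurons switch on with activity or stress, had a median of -0.41, and glucocorticoid-responsive genes -0.48 with 11 of 11 below 0. Egr1 was at 68.6, 68.7 and 32.4 CPM in the controls and 22.9, 28.7 and 35.1 CPM in the double mutants, and Tsc22d3, a mediator of glucocorticoids, at 273, 264 and 182 against 139, 188 and 175 CPM. For both genes the third control overlapped the double mutants. Fkbp5, a glucocorticoid-induced chaperone, did not overlap, at 50.7, 44.6 and 45.4 against 35.5, 35.9 and 34.4 CPM. Fkbp5 was called with 2 genotypes (edgeR adjusted p = 0.0358) and not with 4 (log2 difference -0.41, SE 0.18). Its list had 0 such calls without the second Plekhg5+/+ library, without any 1 of the Plekhg5-/- SOD1-G93A libraries or with the Y-linked covariate. Without the third Plekhg5+/+ library, 38 genes were called with 4 genotypes in the fit, 9 higher and 29 lower, and the lower ones included Hspa1a, Hsph1, Xbp1 and Pdk4. The part of these library differences in the lower lists was not tested.

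The lipid droplet genes Plin1 and Cidec are in no list, were chosen after their values were seen and were called lower with 2 genotypes. Plin1, which coats lipid droplets, was at 0.899, 0.346 and 0.306 CPM in the controls and 0.0308, 0.0304 and 0.0518 CPM in the double mutants, on 52 against 4 counts. Cidec, another lipid droplet protein, was at 1.04, 1.1 and 0.459 against 0.0308, 0.121 and 0.155 CPM. The second Plekhg5-/- library was at 2.83 CPM for Plin1 and 8.41 CPM for Cidec, above all controls. Neither gene was called with 4 genotypes in the fit (edgeR adjusted p = 0.516 and 0.644). With 2 genotypes and without the third Plekhg5+/+ library, Adipoq, Fabp4 and Pck1 were called lower beside them (log2 differences -2.43, -3.33 and -4.02). The part of fat tissue in these values was not tested. The list for lipid uptake, efflux and storage had a median of -0.002 and no call with 4 or 2 genotypes in edgeR (2 of 15 higher and 1 lower at an unadjusted p under 0.05).

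The double mutant and Plekhg5+/+ SOD1-G93A cord were compared directly for the genes above. Of the genes tested 7 were called (0.0347%), which are Plekhg5, Slc2a5, Eno1, Gm30120, Gm8483, LOC115489042 and Faap20. For Clec7a the log2 difference was -1.84 (adjusted p = 0.432), for Cst7 -2.37 (adjusted p = 0.402), for Gpnmb -0.85 (adjusted p = 0.578) and for Gfap -0.62 (adjusted p = 0.517), all from edgeR. The median log2 difference over the disease-associated list was -0.97. Levels of these genes in Plekhg5+/+ SOD1-G93A cord were spread widely, with Clec7a at 63.2, 17.0 and 11.7 CPM and Cst7 at 32.1, 6.80 and 5.70 CPM, and every one of these libraries was above the double mutants for both genes. The double mutant against Plekhg5-/- cord had 1 called gene, human SOD1 (0.00496%). Median log2 differences of Plekhg5-/- cord against the controls were 0.04 for complement and 0.05 for chemokine genes. They were 0.19 for interferon-stimulated and 0.08 for MHC class I genes. A test of whether the effect of SOD1-G93A depends on Plekhg5 called 0 genes in edgeR, with 1824 (9.05%) at an unadjusted p under 0.05.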

How the data were processed

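Total RNA of spinal cord from 7-month-old mice was sequenced as stranded poly-A libraries with single-end reads. The authors deposited 1 table of estimated counts per gene, which holds fractions where a read fits several genes, for 45906 genes. The submitters' processing notes name bcl2fastq 2.20.0.422, cutadapt 2.4, STAR 2.7.2b, featureCounts 1.6.4 and GRCm38.p6. Shared reads make the level of near-identical genes uncertain.

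Here whole numbers were made of the counts by rounding, and these were fitted with edgeR 4.0.16 (R 4.3.3), with the package's default filter by expression, TMM normalisation, a robust quasi-likelihood fit of 4 genotypes (12 libraries) and Benjamini-Hochberg adjustment over all 20155 genes tested, at a threshold of 0.05. The standard error was taken as the log2 difference divided by the square root of F. CPM used the normalised library sizes. Promoter motifs were searched on both strands. Groups came from the labels. Alternatives were DESeq2 1.42.0 with and without a fold change prior, other filters and scaling, 2 genotypes in the fit, a replicate block, a covariate for Y-linked transcripts and leaving out each library. The pipeline was tested on simulated data.

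Named genes were Plekhg5, human SOD1 and mouse Sod1, the called genes by size, by p-value or within 10 Mb of Plekhg5, and in each list up to 5 called members or the 2 with the smallest p. Other genes were named after their values were seen, and some genes of the lists are not reported here. The comparison, the 45 gene lists and the motifs were chosen with earlier results of these data known. Depth was 32235051 to 38743628 counts per library, and intervals cover counting error only.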

Additional observations from a re-analysis of the deposited data

How the results depend on the processing

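The 10 calls became 7 to 14 under other scaling (10), no filter on low counts (13), a mean of at least 1 CPM (7), a threshold of 0.1 (12) and a Y-linked covariate (14), and 61 with DESeq2 and 55 with its prior. The fit of 2 genotypes gave 113. Leaving out 1 library gave 5 to 82 calls with 4 genotypes. The alternatives with 2 genotypes were added after seeing the data and gave 78, 42 and 186 calls without the first, the second or the third Plekhg5+/+ library (80 of the 186 lower), 45, 29 and 93 without the first, the second or the third Plekhg5-/- SOD1-G93A library, 57 with a Y-linked covariate, 316 with DESeq2 and 310 with its prior. Replicate numbers did not pair the libraries (correlations of deviations 0.0143, -0.00622 and -0.163), and a replicate block gave 15 calls.

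Plekhg5, human SOD1, Gm30120, Gm8483 and LOC115489042 were called in every alternative that tested them. Slc2a5 lost its call in 8 of 30, Eno1 in 7 of 30, Tnfrsf25 in 6 of 29, Atp6v0d2 in 3 of 29 and Mmp12 in 2 of 30. With 4 genotypes, Slc2a5, Eno1 and Tnfrsf25 were lost without any 1 of the Plekhg5-/- SOD1-G93A libraries or without the first Plekhg5+/+ library. Eno1 and Tnfrsf25 were also lost without the second Plekhg5+/+ library, and Slc2a5 and Eno1 with the Y-linked covariate. With 2 genotypes, Slc2a5 was lost without the first or the second Plekhg5-/- SOD1-G93A library, and Slc2a5, Eno1 and Tnfrsf25 with the covariate. The causes were not tested.

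Some log2 differences turned sign, all of genes that were not called. Sod1 was 0.0226 with the Y-linked covariate and 0.0908 with 2 genotypes without the first Plekhg5+/+ library. Without 1 library and with 4 genotypes, Sod1 ran from -0.0918 to 0.10, Avil from -0.53 to 2.23, Myl1 from -4.51 to 2.94 and Myh4 from -6.56 to 1.84. With 2 genotypes Myl1 was 2.94 and Myh4 1.84 without the third Plekhg5+/+ library, and Avil -0.54 without the second Plekhg5-/- SOD1-G93A library. With 2 genotypes and the Y-linked covariate, Avil was -0.75 and Sod3 -0.0626.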
